A study of Mus musculus with 6 samples.

Results

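The genes studied here belong to antioxidant defence outside the mitochondrial matrix and were measured in the left ventricle of the mouse, and all 10 of 10 were found by symbol among the 13384 genes of the deposited count table. They were Sod1, Sod3, Cat, Gpx1, Gpx3, Gpx4, Prdx1, Txnrd1, Nfe2l2 and Hmox1, a list given by gene name. One group was 3 adult Cygb(-/-) mice, in which cytoglobin, a haem protein of fibroblasts and vessel wall cells, is deleted in every cell type. The other was 3 Cygb(+/+) littermates. All 6 mice received angiotensin II, a peptide hormone that constricts vessels and enlarges the heart, at 1.5 mg/kg/day, delivered for 2 weeks by a subcutaneous osmotic pump. No group without angiotensin II was used here, so each value is from a heart under that treatment, and each library came from 1 mouse. The strain is not given in the sources used here, Cygb itself was not analysed here, and the genotype is taken from the labels.

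Superoxide dismutases turn superoxide into hydrogen peroxide, and catalase, the glutathione peroxidases and the peroxiredoxins then remove the peroxide. Some of these enzymes work inside the cell. SOD3 and GPX3 are secreted, SOD3 binding to the matrix around vessels and GPX3 circulating in plasma. GPX1, GPX3, GPX4 and TXNRD1 are selenoproteins. NRF2, the product of Nfe2l2, is a transcription factor released from KEAP1 by oxidants, and it acts through the antioxidant response element in genes such as Hmox1, Prdx1 and Txnrd1. Angiotensin II is known to raise superoxide production in vessels and heart through NADPH oxidases.

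The antioxidant response element is shown first, because it is the sequence through which one of the 10 genes can act on others. Its core, TGACNNNGC, was searched on both strands in RefSeq promoters of GRCm38.p6, each from 250 bases before to 50 bases after a transcription start. Of the 10 genes 8 were matched in that table, Sod3 and Hmox1 not being among them, and 4 of the 8 held the core in at least 1 promoter. Counted by gene, 17.2% of the 10307 measured genes with a promoter had at least 1 that held it. Counted by promoter, 4 of the 13 promoters of the 8 genes held it (30.8%), against 12.4% of all 32851 promoters. Windows around the 4 matches follow, 5′ to 3′ on the strand of the gene, with the core in capitals. In Prdx1, Txnrd1 and Sod1 the core lies on the opposite strand, so the capitals read as its reverse complement.
Nfe2l2: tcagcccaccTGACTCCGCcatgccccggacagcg
Prdx1: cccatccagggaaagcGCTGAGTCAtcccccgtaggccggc
Txnrd1: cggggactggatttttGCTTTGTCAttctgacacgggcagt
Sod1: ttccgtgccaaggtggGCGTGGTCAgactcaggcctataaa
The windows lie at chr2:75704879-75704913 (minus strand) for Nfe2l2, and on the plus strand at chr4:116685450-116685490 for Prdx1, chr10:82859098-82859138 for Txnrd1 and chr16:90220690-90220730 for Sod1. The core begins 240, 133, 92 and 56 bases before the start in the same order. The Nfe2l2 window overlaps an exon of the neighbouring gene E030042O20Rik, the Txnrd1 window lies in a Txnrd1 intron before an internal start, and the other 2 windows overlap no annotated gene. The Prdx1 match also holds TGACTCA, the site of AP-1 factors, so both motifs overlap there. A match describes the letters only; binding was not measured.

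Libraries held 23190864 to 30354857 counts, and every level below is in CPM scaled by TMM size factors. Ventricular muscle markers were abundant in all 6 libraries, their 6 genes summing to 50070 to 69480 CPM. Libraries did stand apart in other tissue markers. Atrial markers (4 genes) summed to 492 to 566 CPM in knockout libraries and 699 to 3035 CPM in wild-type libraries, highest in wild-type replicate 1. Activated fibroblast markers (4 genes) reached 834 CPM in wild-type replicate 2 against 211 to 419 CPM in the other 5 libraries. Leaving out any 1 library did not turn the direction of Sod3, Gpx3, Nfe2l2 or Hmox1, but Hmox1 fell to 0.16 without knockout replicate 1. Leaving out 1 library cannot remove a marker difference that runs between the groups. The part of such differences in these levels was not tested.

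The secreted enzymes Sod3 and Gpx3 were both about 1.5-fold lower in knockout ventricles, with no overlap between the groups. The intracellular enzymes Sod1, Cat, Gpx1, Gpx4, Prdx1 and Txnrd1 differed by at most 1.09-fold in the edgeR point estimates. Their intervals on the log2 scale, given below, reached from -0.40 (Sod1) to 0.42 (Prdx1). In a fit corrected for GC content and transcript length, Gpx4 was at 0.42, Gpx3 at -0.43 and Sod3 at -0.50 on that scale. The contrast in size between secreted and intracellular enzymes thus did not hold for Gpx4 in that fit. Nfe2l2 was 1.30-fold higher without overlap. None of the 10 genes passed edgeR's quasi-likelihood test with adjustment over all genes at 0.05, under which 0.112% of the 13384 genes were called. At an unadjusted p under 0.05 there were 3 of the 10, where 19.2% of all genes stood. Groups did not overlap for 4 of the 10, against 22.3% of all genes. DESeq2 called 2 of the 10, Sod3 and Gpx3, and 4.71% of the genes it tested.

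**Figure D1:**
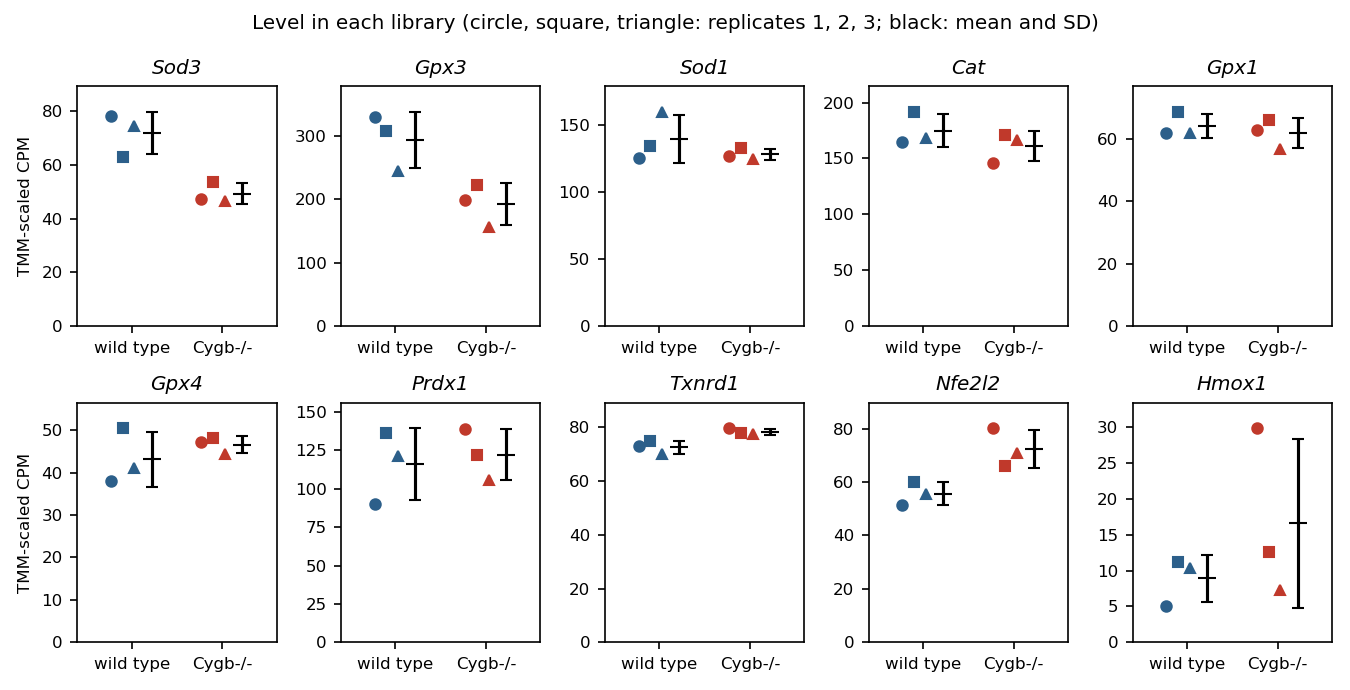
Level of each of the 10 genes in every library, in TMM-scaled CPM on axes that start at 0. Blue symbols are wild type and red are Cygb-/-, with circle, square and triangle for replicates 1, 2 and 3, and the black mark is the mean with its SD. All 3 knockout libraries lie below all 3 wild-type libraries for Sod3 and Gpx3, and above them for Nfe2l2 and, by a small margin, Txnrd1.

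Sod3 encodes extracellular superoxide dismutase, made mainly by smooth muscle cells and fibroblasts of the vessel wall. It was at 47.4, 53.6 and 46.6 CPM in knockout replicates 1, 2 and 3. In wild-type replicates 1, 2 and 3 it was at 78.1, 63.0 and 74.5 CPM. The highest knockout library thus lay below the lowest wild-type library, which was replicate 2. Knockout mice averaged 49.2 ± 3.85 CPM and wild-type mice 71.9 ± 7.92 CPM (SD, n = 3 each). The difference as a log2 fold change, knockout minus wild type, was -0.55 (SE 0.13, 95% interval -0.83 to -0.26, edgeR adjusted p = 0.0795). DESeq2 gave an adjusted p of 0.0111. Without wild-type replicate 2 the edgeR adjusted p was 0.00927, in a fit that called 13.6% of all genes, so the pass was not particular to Sod3. Over the 16 alternative settings tried for each gene, the log2 fold change of Sod3 ran from -0.63 to -0.48. A fit corrected for the GC content and length of transcripts, library by library, left it at -0.50 (edgeR adjusted p = 0.0650).

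Gpx3 encodes the secreted plasma glutathione peroxidase. It was at 199, 222 and 157 CPM in knockout replicates 1, 2 and 3, whereas the wild-type libraries gave 330.2, 308 and 244 CPM. The groups stood apart by a narrow gap, from 222 CPM in knockout replicate 2 to 244 CPM in wild-type replicate 3. Means were 193 ± 33.3 CPM against 294 ± 44.5 CPM (SD, n = 3 each). Its log2 fold change was -0.61 (SE 0.16, 95% interval -0.95 to -0.27, edgeR adjusted p = 0.0909), and the DESeq2 adjusted p was 0.0142. Without wild-type replicate 2 Gpx3 passed the edgeR test as well (adjusted p = 0.0484). Estimates ran from -0.73 to -0.43 over the 16 settings. The value nearest to 0 came from the fit without the GC content and length trend (edgeR adjusted p = 0.259).

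Smooth muscle and mesothelial markers summed lower in every knockout library than in any wild-type library, while fibroblast and endothelial markers overlapped. For smooth muscle this rested on Acta2, as the sums of the other genes on that list overlapped between the groups. Smooth muscle markers (5 genes measured of 5) summed to 142 to 192 CPM in knockout libraries and 199 to 313 CPM in wild-type libraries. All 5 had a log2 fold change below 0, with a median of -0.40, and none of them passed the edgeR test. Acta2 (57.5 to 76.0 CPM against 98.0 to 141 CPM) and Myl9 (20.8 to 24.2 CPM against 29.2 to 55.7 CPM) were lower without overlap. Tagln, Cnn1 (-0.25) and Myh11 (-0.15) overlapped between the groups. DESeq2 called 2 of the 5 lower, as well as 1 mesothelial, 1 fibroblast, 1 atrial and 2 activated fibroblast markers. Of all genes it tested, it called 2.03% lower. Fibroblast markers (5 of 5 measured) summed to 712 to 804 CPM and 733 to 1344 CPM in the same order. Their median log2 fold change was -0.35, but 0.11 without wild-type replicate 2, and that of activated fibroblast markers went from -0.99 to -0.18. Endothelial markers (4 of 4) summed to 730 to 912 CPM against 770 to 1177 CPM. Mesothelial markers (3 of 4 measured) summed to 11.3 to 16.2 CPM against 17.7 to 41.5 CPM. Msln and Upk3b were lower without overlap, while Wt1 overlapped and had a log2 fold change of 0.14. Wild-type replicate 1, the library with the highest Sod3 and Gpx3, was also the highest for smooth muscle, endothelial and mesothelial markers. The same library was the highest for ventricular muscle, atrial and red cell markers, so this was not particular to 1 cell type. Smooth muscle markers summed to 218 and 199 CPM in wild-type replicates 2 and 3. Sod3 was at 63.0 and 74.5 CPM and Gpx3 at 308 and 244 CPM there. The part of these markers in the levels of Sod3 and Gpx3 was not tested. In whole tissue, fewer cells of a type and less RNA per cell cannot be told apart.

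The secreted enzyme was next set against an intracellular enzyme of the same family within each library. This comparison does not depend on the scaling of libraries, and it was chosen after the values were seen. The ratio of Sod3 to Sod1 counts was 0.373, 0.405 and 0.374 in knockout replicates 1, 2 and 3. It was 0.622, 0.469 and 0.466 in wild-type replicates 1, 2 and 3. The groups did not overlap, and wild-type replicate 1 was the highest by a wide gap. The ratio of Gpx3 to Gpx1 counts was 3.17, 3.36 and 2.76 in the knockout and 5.34, 4.48 and 3.95 in the wild type, in the same order, again without overlap. That of Gpx3 to Gpx4 was 4.21, 4.61 and 3.53 against 8.68, 6.10 and 5.96. This last ratio is uncertain, because how reads shared with a Gpx4 pseudogene were assigned is not given. The log2 differences were -0.42, -0.56 and -0.73. Each of the 3 ratios gave p = 0.10 in a two-sided exact permutation test and 0.10 after Benjamini-Hochberg adjustment over the 3, which is the smallest p that 3 mice against 3 allow. These ratios restate the levels given above, and with so few mice the test could not pass 0.05.

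**Figure D2:**
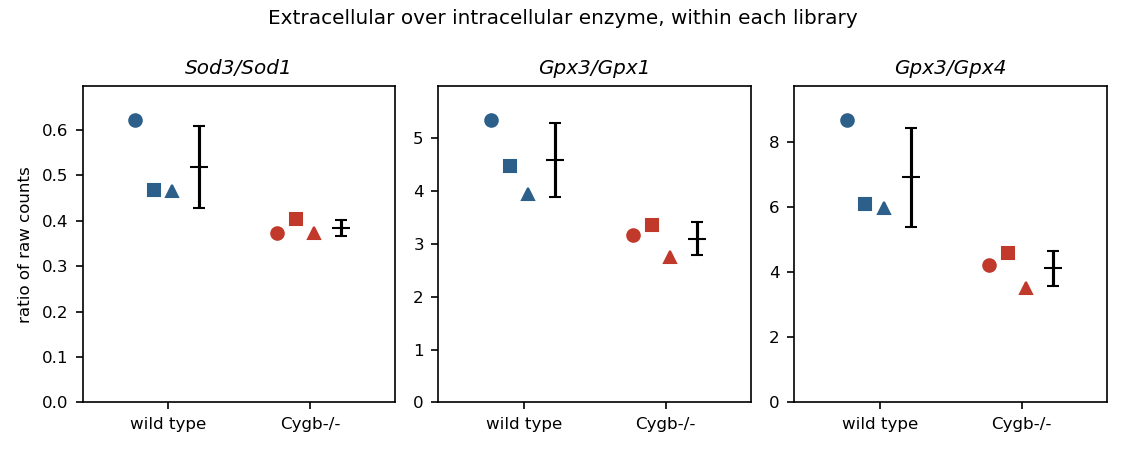
Ratio of raw counts of a secreted enzyme to an intracellular enzyme in each library, on axes that start at 0, with the mean and SD in black. Blue is wild type, red is Cygb-/-, and circle, square and triangle are replicates 1, 2 and 3. Every knockout library lies below every wild-type library in all 3 panels, and wild-type replicate 1 is the highest in each.

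The intracellular superoxide dismutase gene Sod1, whose product uses copper and zinc in the cytosol, was at 127, 133 and 125 CPM in knockout replicates 1, 2 and 3. In the wild type it was at 126, 134 and 160 CPM. The groups overlapped, and 1 library, wild-type replicate 3, lay above the rest. This gave a log2 fold change of -0.13 (SE 0.13, 95% interval -0.40 to 0.15), or -0.021 without that library.

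Cat encodes catalase, the peroxide-degrading enzyme of peroxisomes. It was at 146, 171 and 166 CPM in the knockout replicates, against 165, 192 and 168 CPM for the wild type. Knockout replicate 1 was the lowest and wild-type replicate 2 the highest, and the other 4 libraries lay between 165 and 171 CPM. Expressed as a log2 fold change the difference was -0.12 (SE 0.12, 95% interval -0.39 to 0.15), and -0.042 without wild-type replicate 2.

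Among the intracellular selenoproteins, Gpx1 encodes the main cytosolic glutathione peroxidase. Its levels were 62.7, 66.1 and 56.8 CPM in the knockout, and wild-type levels were 61.8, 68.7 and 61.9 CPM. They overlapped almost fully, with a log2 fold change of -0.052 (SE 0.12, 95% interval -0.32 to 0.21). Gpx4, whose product reduces lipid peroxides in membranes, was at 47.2, 48.2 and 44.3 CPM against 38.0, 50.4 and 41.0 CPM. Wild-type libraries spread on both sides of the knockout, and the log2 fold change was 0.11 (SE 0.14, 95% interval -0.19 to 0.41). With the GC content and length trend removed, Gpx4 was at 0.42 (edgeR adjusted p = 0.309) and Gpx1 at 0.18 (0.526). These 2 genes have the highest GC content of the 10, 60.2% for Gpx4 and 57.2% for Gpx1. A pseudogene of Gpx4, Gpx4-ps2, is annotated, and how the authors assigned reads shared with it is not given in the sources used here, so the values of Gpx4 are uncertain.

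Txnrd1 encodes the cytosolic thioredoxin reductase. It had the narrowest spread of the 10, at 79.7, 78.1 and 77.5 CPM in the knockout, against wild-type levels of 73.0, 74.8 and 70.0 CPM. All 3 knockout libraries were above all wild-type libraries, by a small step. The log2 fold change was 0.11 (SE 0.11, 95% interval -0.13 to 0.36, edgeR adjusted p = 0.610). Prdx1, the gene of a cytosolic peroxiredoxin that thioredoxin regenerates, was at 139, 122 and 106 CPM against 90.3, 136 and 121 CPM. It varied more within the wild type (1.51-fold from lowest to highest) than between the group means, with a log2 fold change of 0.075 (SE 0.16, 95% interval -0.27 to 0.42).

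Nfe2l2, the gene of NRF2, was at 80.1, 65.9 and 70.9 CPM in knockout replicates 1, 2 and 3. In the wild type it was at 51.5, 60.1 and 55.4 CPM. Each knockout library exceeded each wild-type library. For Nfe2l2 the log2 fold change was 0.38 (SE 0.13, 95% interval 0.10 to 0.65, edgeR adjusted p = 0.152), and DESeq2 did not call it (adjusted p = 0.114). The edgeR test was passed without wild-type replicate 2 only (adjusted p = 0.0354, the lowest of 16 settings that reached 0.462). Of the 4 genes with the core letters in a promoter, Nfe2l2 alone had a 95% interval that did not include 0. These intervals are not adjusted for the number of genes. Before adjustment, 19.2% of the measured genes reached p under 0.05 in edgeR. A link between the letters and the levels was not tested.

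Hmox1 encodes haem oxygenase 1, which breaks down haem in macrophages and stressed cells. It was at 29.8, 12.6 and 7.32 CPM in knockout replicates 1, 2 and 3, against 5.11, 11.2 and 10.4 CPM for the wild type. Knockout replicate 1 stood above every other library, and the remaining 5 overlapped. The knockout libraries spread 4.07-fold, the widest of the 10 genes. The log2 fold change was 0.90 (SE 0.60, 95% interval -0.60 to 2.40, edgeR adjusted p = 0.465), and 0.16 without knockout replicate 1. Macrophage markers (6 of 6 measured) summed to 193 CPM in knockout replicate 1 and to 169 to 217 CPM in the other libraries, and their part in the level of Hmox1 was not tested.

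**Figure D3:**
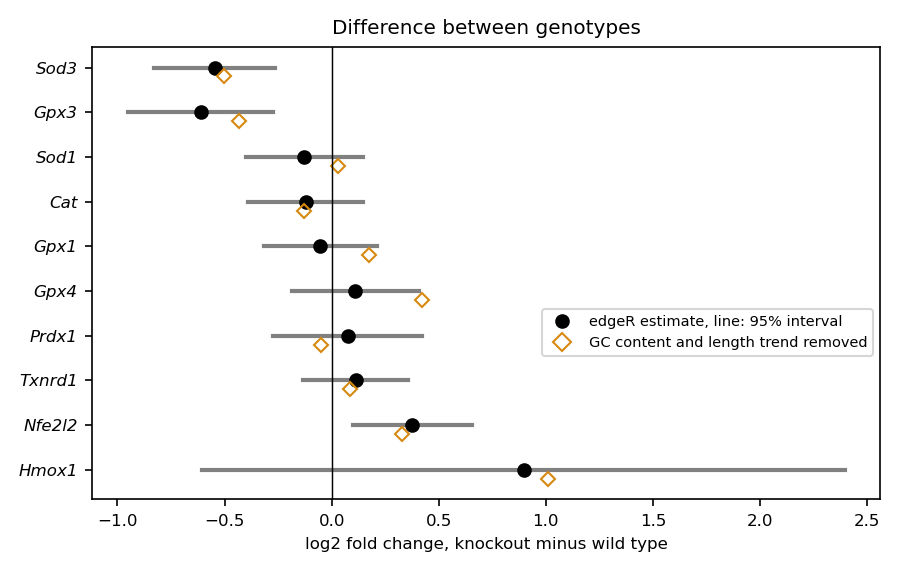
Log2 fold change, knockout minus wild type, of the 10 genes from edgeR (black points) with 95% intervals (grey lines), and from the fit in which each library's GC content and length trend was removed (orange diamonds). The intervals of Sod3, Gpx3 and Nfe2l2 lie to 1 side of 0, and Hmox1 has the widest, from -0.60 to 2.40.

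**Figure D4:**
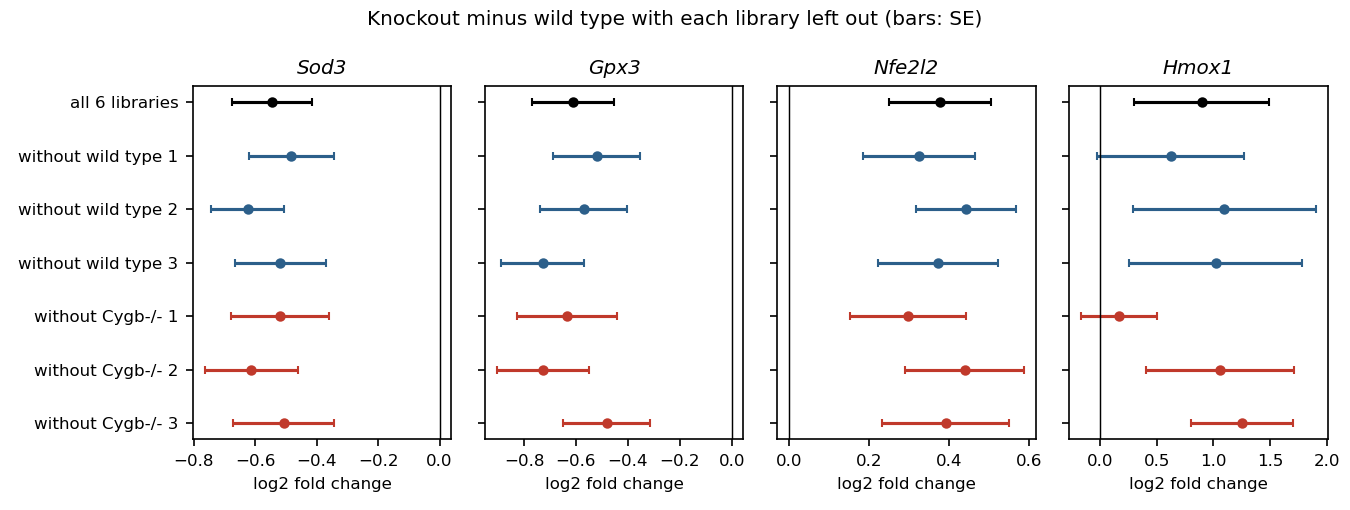
Log2 fold change of 4 genes in all 6 libraries (black) and with 1 wild-type (blue) or 1 Cygb-/- (red) library left out; bars are SE and each panel has its own axis. Sod3 and Gpx3 stay below 0 and Nfe2l2 above 0 in every panel row, while Hmox1 drops to 0.16 without Cygb-/- replicate 1.

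Levels between genes were compared per kilobase of the longest transcript in GENCODE M21, over all 6 libraries. On this scale the order from highest was Sod1 (209 CPM per kilobase), Gpx3 (153), Cat (64.3), Gpx1 (58.8), Prdx1 (51.9), Gpx4 (45.1), Nfe2l2 (25.9), Txnrd1 (20.9), Sod3 (16.2) and Hmox1 (8.12). Per kilobase of all annotated exons, Gpx3 came first (134) and Sod1 moved from place 1 to place 5 (33.8), as Sod1 has 641 bases in that transcript and 3970 in all exons. Within each genotype, Cat overlapped Gpx1, Gpx1 overlapped Prdx1, and Prdx1 overlapped Gpx4. Sod1 (196 to 249.8) overlapped Gpx3 (153 to 207) in the wild type, but not in the knockout (195 to 207 against 98.2 to 139). Sod3 (16.8 to 20.9) overlapped Txnrd1 (19.3 to 20.7) in the wild type and lay below it in the knockout (12.5 to 14.4 against 21.4 to 22.0). Per kilobase of all exons their order was the other way round, with Sod3 at 16.2 and Txnrd1 at 10.7 over all 6 libraries.

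In GRCm38 the 10 genes lie apart on 8 chromosomes, are all protein-coding, and share no annotated exon sequence with another gene. Sod3 lies on chromosome 5 from 52363791 to 52371418 (2 exons in its longest transcript), Gpx3 on chromosome 11 from 54902453 to 54910377 (5 exons) and Nfe2l2 on chromosome 2 from 75675513 to 75704641 (5 exons). Hmox1 lies on chromosome 8 from 75093621 to 75100589. Each value covers all the reads that the authors assigned to the gene.

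The genes whose levels followed those of Sod3 and Gpx3 most closely were sought over the 6 libraries, among all genes. For Sod3 they were Ephx3 (Pearson r = 0.998 over 6 libraries), 4833438C02Rik (0.997) and Gprc5c (0.996), and for Gpx3 they were Slc2a10 (0.994), Anapc15 (0.989) and Sgms1os1 (0.982). Ephx3, an epoxide hydrolase gene, had a log2 fold change of -1.25, and Slc2a10, a glucose transporter gene, -0.71. These are the highest of 13383 correlations over few points that share the same libraries and groups, and they are given as a description.

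Regulators and targets of NRF2 were read beside Nfe2l2. The log2 fold change was above 0 for 8 of 10 regulators and its median was 0.091. Over all genes, 49.4% were above 0 and the median was -0.0045. None passed the edgeR test. Bach1, a repressor that competes with NRF2 at Hmox1, was at 43.3 ± 3.29 CPM against 33.1 ± 1.53 CPM (0.39 on the log2 scale, SE 0.12, edgeR adjusted p = 0.136), and its groups did not overlap. Mafk, a small MAF partner, was at -0.29 and Cul3, a ubiquitin ligase scaffold gene, at 0.27, while Keap1 was at -0.053. With the GC content and length trend removed the median was 0.14, Bach1 was at 0.20, Mafk at -0.14, Cul3 at -0.032 and Keap1 at 0.14, so Cul3 and Keap1 turned direction. Of 22 other NRF2 target genes 11 were above and 11 below 0, with a median of -0.0069, and none passed. Nqo1 (0.022), Gclm (0.13), Gclc (0.092) and Srxn1 (0.049), which are classic targets, lay near 0, and Gclm turned to -0.14 in that fit. The members of smallest p were Aox1 (0.53), Cbr3 (-0.67) and Idh1 (0.35).

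Genes of the glutathione and thioredoxin systems were spread on both sides of 0 as well. Of 26 genes of glutathione synthesis and conjugation 10 were above 0 and 16 below, with a median of -0.049, none passing edgeR and none at an unadjusted p under 0.05. Those of smallest p were Mgst3 (-0.26), Gstm7 (-0.26) and Chac1 (0.81). With the GC content and length trend removed, Gstm7 was at -0.14. Several glutathione transferase genes are close paralogs, so reads may be split among them. Of 14 other thiol peroxidase and thioredoxin genes 6 were above and 8 below 0, with a median of -0.015 and none passing. The sestrin genes Sesn1 (0.41, SE 0.12, edgeR adjusted p = 0.116) and Sesn3 (0.92, SE 0.33) and the endoplasmic reticulum peroxidase gene Gpx7 (-0.53, SE 0.20) had the smallest p. Gpx7 was at -0.35 with the GC content and length trend removed, and Sesn3 at 1.39 without wild-type replicate 2. Prdx6 was at -0.0031 and Prdx2 at -0.19.

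Because Gpx3 is a selenoprotein gene, as are Gpx1 and Gpx4, other selenoprotein genes were listed. Of 15 measured, 12 were below 0 and 3 above, with a median of -0.12. None passed edgeR, 4 were lower at an unadjusted p under 0.05 (8.94% of all genes), and 6 were lower without overlap (10.5% of all genes). The list was chosen with earlier results of these data known, so these shares are not an independent reference. Selenom was at 19.6, 22.8 and 18.9 CPM in the knockout, against wild-type levels of 26.7, 31.1 and 33.3 CPM (-0.57 on the log2 scale, SE 0.14, edgeR adjusted p = 0.0872). Selenoo was at -0.42 and Selenow, a selenoprotein of muscle, at -0.37. All 3 were nearer to 0 with the GC content and length trend removed, Selenom and Selenoo at -0.19 and Selenow at -0.12. The median of the list remained at -0.12 in that fit. Selenop, the gene of the plasma selenium carrier, was at 0.091. Of the 10 genes of selenoprotein synthesis 5 were above and 5 below 0, with a median of -0.040. Sepsecs (0.58), Sephs2 (-0.30) and Pstk (-0.29), enzymes of selenocysteine formation, had the smallest p, and Sepsecs was at 0.35 with that trend removed.

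SOD1 and SOD3 need copper, and HMOX1 releases iron from haem, so genes of both metals were listed. Of 9 copper supply and metallothionein genes 5 were above and 4 below 0, with a median of 0.26, none passing. Atp7a, the pump that loads copper into secreted enzymes including SOD3, was at 12.7 ± 1.21 CPM against 8.67 ± 2.07 CPM (0.55 on the log2 scale, SE 0.19, edgeR adjusted p = 0.162). Cp, the gene of ceruloplasmin, was at 0.44 and the copper importer gene Slc31a1 at 0.27, while Ccs, the copper chaperone of SOD1, was at -0.081. These values depended on the GC content and length trend. Without it the list's median was 0.14, Atp7a was at 0.36, Cp at 0.22, Slc31a1 at 0.084 and Ccs, on the other side of 0, at 0.14. Of 12 haem and iron genes 5 were above and 7 below 0, with a median of -0.028. Cd163, the macrophage receptor that takes up haemoglobin, was at 31.2, 24.6 and 38.3 CPM in the knockout, against wild-type levels of 18.0, 17.0 and 15.1 CPM (0.91 on the log2 scale, SE 0.17, edgeR adjusted p = 0.0562). The iron exporter gene Slc40a1 was at 0.49 and the haem transporter gene Slc48a1 at -0.22, or -0.042 without the trend. Cd163 was highest in knockout replicate 3, the knockout library in which Hmox1 was lowest.

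**Figure D5:**
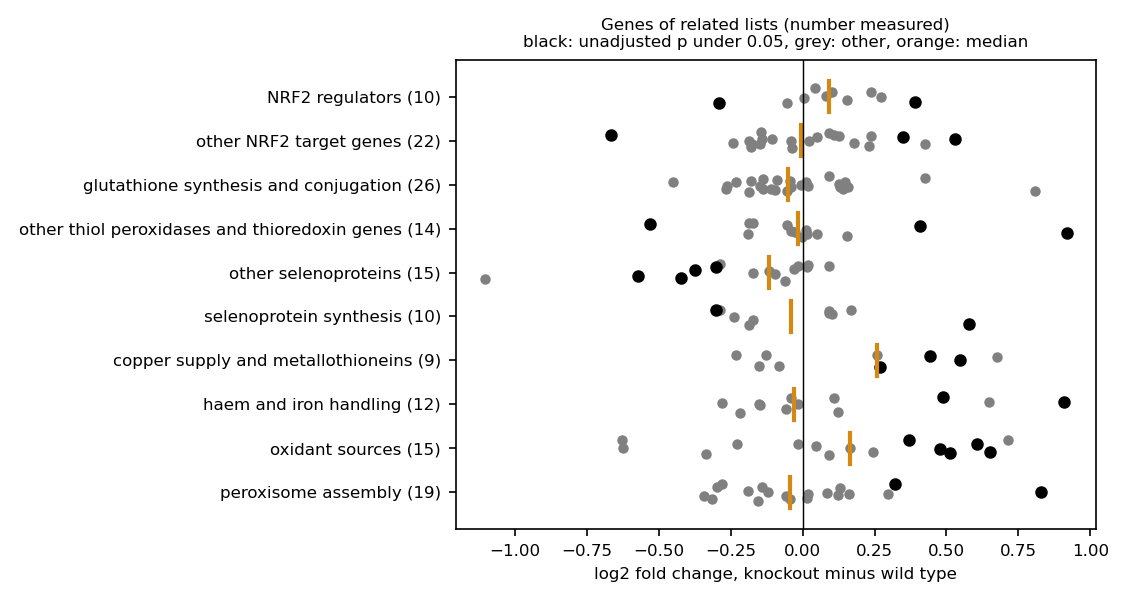
Log2 fold change, knockout minus wild type, of every measured gene in 10 lists related to the antioxidant enzymes, with the number measured in brackets. Black points have an unadjusted edgeR p under 0.05, grey points do not, and orange bars are medians, which run from -0.12 for other selenoproteins to 0.26 for copper supply and metallothioneins (0.14 for the latter with the GC content and length trend removed).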

How the data were processed

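Polyadenylated RNA of left ventricles was sequenced in 6 libraries, 3 of each genotype. Raw read counts per gene, whole numbers without normalization, were deposited as 1 table. The submitters' processing notes name mm10 and DESeq2; the aligner, the counter, the annotation, strand use and any filter are not stated in those sources. Models were fitted with edgeR 4.0.16 under R 4.3.3, using TMM size factors, filterByExpr (0% of genes removed) and the robust quasi-likelihood test, two-sided, without covariates, with Benjamini-Hochberg adjustment over 13384 genes and a threshold of 0.05. The common biological coefficient of variation was 0.166. The 10 genes had 124 to 8022 counts per library. SE came from the test statistic. Alternatives were DESeq2 1.42.0, limma-voom (limma 3.58.1), other size factors and filters, estimation without robustness, the replicate number as a block, removal of GC content and length trends (splines with 4 degrees of freedom, GENCODE M21, found for 94.2% of genes), a fit without mitochondrial genes, and each library left out. The edgeR script was tested on simulated data. The 10 genes, the related lists and the markers were chosen with earlier results of these data known, and each list's median and counts stand beside those of all genes, without a list test. All 10 genes, and of each list any called gene and the 3 of smallest p, were to be named; other named genes were chosen after their values were seen.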

Additional observations from a re-analysis of the deposited data

How the results depend on the processing

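None of the 10 genes passed edgeR with RLE or upper quartile size factors, other filters, robust estimation off, limma-voom, the GC content and length trend removed, or mitochondrial genes left out. Lower calls among the 10 numbered 2 with DESeq2, 2 at a threshold of 0.10 (Sod3 and Gpx3 in both) and 0 to 2 with a library left out; higher calls numbered 0 to 1 with a library left out. With the replicate number as a block, 1 of the 10 was lower (Gpx3, edgeR adjusted p = 0.0437, in a fit that called 1.63% of all genes) and no other call among them changed. The numbers are not taken to pair the mice, since the deviations of same-numbered libraries correlated at -0.118, -0.074 and -0.145, and no library correlated best with its own number. Over all genes, 12 higher and 3 lower calls became 352 and 266 with DESeq2, 131 and 87 with the replicate block, 22 and 21 with the GC content and length trend removed, and 193 and 125 at 0.10. Higher calls were 7 with robust estimation off. With 1 library left out, higher calls ran from 0 to 971 and lower calls from 0 to 855, the largest of both without wild-type replicate 2. In the related lists, 0 genes passed in either direction. With DESeq2 4 were higher (Sesn1, Cd163, Xdh, Abcd2) and 1 lower (Selenom). Cd163 was the 1 higher gene with the replicate block, with the GC content and length trend removed and at 0.10, where Selenom was the 1 lower. With 1 library left out, higher genes ran from 0 to 10 and lower genes from 0 to 2. The direction turned for 3 genes near 0. Sod1 was at 0.029, Gpx1 at 0.18 and Prdx1 at -0.048 with the GC content and length trend removed. With single libraries left out, Gpx1 ran from -0.10 to 0.0073 (0.0058 when knockout replicate 3 was absent, the highest when wild-type replicate 2 was). Prdx1 ran from -0.076 (wild-type replicate 1 absent) to 0.21, at -0.027 when knockout replicate 1 was absent. The cause of these changes was not tested. The spread between libraries of a group exceeded counting error, except for Txnrd1 in the knockout (spread of 1.45% of the mean, counting error up to 2.39%). The margin was small for Txnrd1 in the wild type (spread of 3.31%) and Gpx4 in the knockout (spread of 4.36%, counting error up to 3.29%). This spread includes counting error, so it is not the spread between mice alone. Hmox1 had the fewest counts.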

Other observations

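Genes that make oxidants were looked at beside those that remove them. Of 15 measured 10 were above 0 in the knockout, with a median log2 fold change of 0.17 (0.21 with the GC content and length trend removed), against -0.0045 over all genes. None passed the edgeR test, and 5 were higher at an unadjusted p under 0.05, where 10.2% of all genes stood. As the list was chosen with earlier results of these data known, that share is not an independent reference. Xdh, the gene of xanthine oxidoreductase, was at 124, 143 and 174 CPM in knockout replicates 1, 2 and 3, above wild-type levels of 94.2, 112 and 104 CPM (0.51 on the log2 scale, SE 0.14, edgeR adjusted p = 0.109). The subunit genes of the phagocyte NADPH oxidase Ncf1 (0.61, SE 0.20) and Cybb (0.48, SE 0.18) had edgeR adjusted p of 0.145 and 0.180, Cybb being at 0.25 with the GC content and length trend removed, and Ero1b, an oxidase gene of the endoplasmic reticulum, was at 0.65. Nox4, the oxidase gene of vessel wall cells and fibroblasts, was at -0.63 with a wide error (SE 0.82). Wild-type replicates 1, 2 and 3 held it at 1.07, 10.1 and 2.23 CPM, and its log2 fold change turned to 0.79 without replicate 2. Macrophage markers summed to 193 to 217 CPM in knockout and 169 to 198 CPM in wild-type libraries, and their part in Ncf1 and Cybb was not tested.

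Peroxisome genes, listed because catalase works in that organelle, had 9 of 19 above 0 and a median of -0.045. Abcd2, a transporter of very long chain fatty acids into peroxisomes, was at 5.02, 7.62 and 7.89 CPM in the knockout, against wild-type levels of 3.66, 4.15 and 3.74 CPM (0.83 on the log2 scale, SE 0.23, edgeR adjusted p = 0.102). Abcd3 was at 0.32 and Pex16 at -0.32, or at 0.19 and 0.012 with the GC content and length trend removed. Abcd2 was then at 0.56.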
